A study of Mus musculus with 6 samples.

Results

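Polycomb repressive complex genes were followed through RNA-seq of bone marrow from mice carrying MLL-AF9 leukemia. The 10 member genes were taken by name from the subunits of the Polycomb complexes, and are 10 of the 55487 genes of the deposited table. The rule uses no measured value, though the genes were chosen with earlier results of these data known. The members are Ezh1, Ezh2, Eed and Suz12 of Polycomb repressive complex 2 (PRC2), Bmi1, Ring1 and Rnf2 of Polycomb repressive complex 1 (PRC1), and the chromobox genes Cbx2, Cbx7 and Cbx8 of PRC1. All 10 were matched by symbol and all 10 passed the filter on low values, so each was tested. Donor cells in all 6 libraries came from CD45.2+ C57BL/6 mice of genotype Mx1-Cre Brd9fl/fl and carried MLL-AF9, an oncogenic fusion behind one class of acute myeloid leukemia, and the recipients were CD45.1+. From the day after transplantation, 3 recipients were given 3 doses of pIpC at 20 mg/kg on alternate days, and 3 were given PBS on the same schedule. Marrow of femora and tibiae was prepared 10 days after the injection. pIpC imitates viral double-stranded RNA, and the interferon it elicits switches on the Mx1 promoter that drives Cre. The PBS group carries the same Cre and the same floxed alleles, and Mx1-Cre acts in many interferon-responsive cells and not in leukemia cells alone. No library used here had pIpC without Cre, so a response to pIpC itself and one to loss of Brd9 cannot be told apart. The labels name GFP+ marrow cells and the study's methods name c-Kit+ marrow cells. Nothing states that replicates came from separate leukemias, so p-values measure the spread between these libraries.

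Polycomb proteins keep genes silent by marking chromatin. PRC2 places methyl groups on lysine 27 of histone H3 (H3K27me3) through either of the paralogous enzymes EZH1 and EZH2, which need EED and SUZ12 for activity. PRC1 adds ubiquitin to lysine 119 of histone H2A through RING1 or RNF2 (also called RING1B), paired with a PCGF protein such as BMI1, and in its canonical form a CBX protein binds H3K27me3. In blood, BMI1 is known for sustaining stem cell self-renewal and for silencing the Cdkn2a locus, and CBX7 and CBX8 have both been linked to self-renewal and to MLL fusion leukemia.

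Reads counted on genes ranged from 19277439 to 23586722 per library, and Cbx2, the least counted member, had 65 reads in its lowest library. Brd9, the floxed gene, had a normalized count of 1926.8, 1946.4 and 1631.9 in PBS replicates 1 to 3 and of 2036.0, 2263.0 and 2011.4 in the libraries labelled pIpC (log2 fold change 0.20 ± 0.13, SE, with limma's Benjamini-Hochberg adjusted p at 0.259). The whole-gene count of Brd9 was therefore not lower where the label says pIpC, and every direction below is that of the label. In the study's floxed allele, Cre removes only the exons that encode the bromodomain. The study reported that this excision lowered Brd9 mRNA in whole marrow of its knockout mice. It also reported poor depletion of Brd9 in GFP+ marrow cells of pIpC-treated leukemic mice that died early. A count over the whole gene does not show whether those exons were lost, and the extent of deletion in these libraries was not tested. PBS replicate 3 stood apart from the other libraries by transcript length: its median log2 deviation from the mean of all libraries was 0.63 for the genes with the shortest transcripts (1730 bases or less, the first quartile) and -0.60 for those with the longest (4473 bases or more, the third quartile), where no other library went beyond -0.16 and 0.21. For the results it touches most, the value without it is given beside the value with it. Markers of normal marrow cells also moved with the label. The calls for these lists come from the test used below, in which 25.0% of all genes tested rose and 20.4% fell. All 14 neutrophil maturation genes rose, with a summed normalized count of 28208 to 54420 in PBS and 2065470 to 2132150 in the libraries labelled pIpC. The same held for 14 of 14 erythroid genes tested (1866 to 3091 against 9791 to 12662), 15 of 15 B cell genes (1789 to 3012 against 11484 to 41075) and 6 of 6 T and NK cell genes tested (189 to 320 against 3954 to 4586). Of 14 macrophage and stroma genes 9 rose and 3 fell, and their sum was lower, 11734 to 17028 in PBS against 8146 to 9929. The erythroid markers Slc4a1 and Rhag, the B cell marker Ms4a1 and the T cell marker Trac had no read in any PBS library. Of 8 genes of leukemia and stem or progenitor cells 5 fell and 1 rose, or 75% beside 45.3% of all genes tested. Their median difference was -1.32 (log2), and they summed to 48656 to 51593 in PBS against 22776 to 23374. Hoxa9 among them fell from 4917.0, 5172.3 and 5300.7 to 223.6, 275.9 and 268.8. In bulk RNA, fewer cells of a type and less RNA per cell cannot be told apart, and the part of these markers in the results below was not tested.

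Most of the 10 member genes did not pass the test, and the share that was lower, 20%, was near the 20.4% of all genes tested. Ring1 and Cbx8 were lower in the libraries labelled pIpC and no member was higher, at a Benjamini-Hochberg adjusted p under 0.1 from limma over all 15020 genes tested. These 2 of 10 members stand beside 45.3% of all genes tested that passed in either direction, 20.4% that were lower and 25.0% that were higher. With quantile normalization the higher genes were 44.3% of all calls in place of 55.08%, and the member calls stayed in the same direction. In 3 of 10 members, Ezh2, Ring1 and Cbx8, the values of the groups did not overlap, beside 56.8% of all genes tested. The median size of the log2 fold change, whatever its sign, was 0.15 over the members and 0.57 over all genes tested, and the signed medians were -0.11 and 0.01. All genes tested were not matched to the members on level. Without PBS replicate 3 the calls were 3 of 10, all lower, with Cbx7 as the third, beside 65.1% of all genes.

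**Figure D1:**
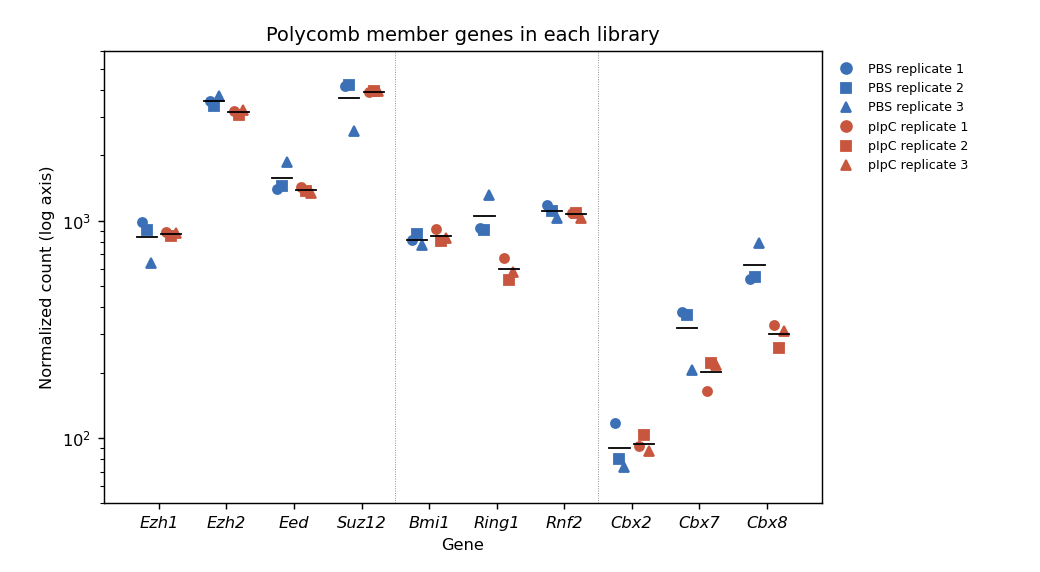
Normalized count of each member gene in each library, on a log axis. Blue points are PBS and red points the libraries labelled pIpC, with 1 symbol per replicate, and the black line is the mean of 3 libraries. Ring1 and Cbx8 lie lower in all 3 red points, from 534.3 to 674.7 and from 259.5 to 332.4, and PBS replicate 3 (blue triangle) lies apart for Ezh1, Suz12, Cbx7, Eed, Ring1 and Cbx8.

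**Figure D2:**
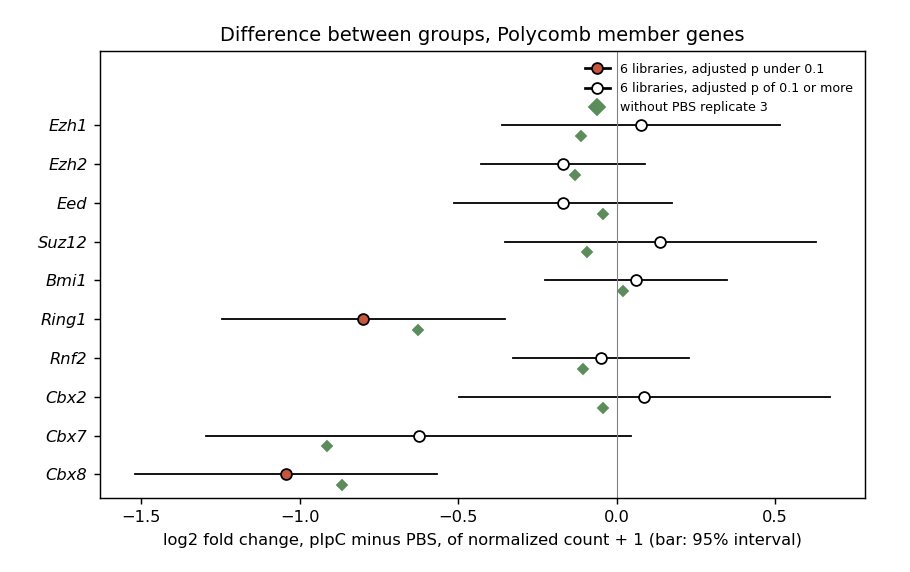
log2 fold change of each member gene, libraries labelled pIpC minus PBS, on log2(normalized count + 1), with its 95% interval from limma. Filled points passed an adjusted p of 0.1, and green diamonds are the values without PBS replicate 3. The intervals of Ring1 (-1.25 to -0.35) and Cbx8 (-1.52 to -0.57) lie below 0, and the Cbx7 diamond is at -0.91.

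No subunit of the PRC2 core passed the test. Ezh2 (chr6:47530139-47595341 of GRCm38, minus strand, 20 exons in its longest transcript), the more active methyltransferase of dividing cells, had a normalized count of 3561.2, 3370.6 and 3746.9 in PBS replicates 1 to 3 and of 3197.8, 3058.9 and 3231.7 in the libraries labelled pIpC. All 3 of the latter were below all 3 PBS libraries, yet the distance was small, with 3560 ± 188 against 3163 ± 91.5 (SD, n = 3 each). The log2 fold change was -0.17, with a 95% interval of -0.43 to 0.09 and an adjusted p of 0.265 from limma. Quantile normalization alone moved Ezh2 past the threshold, at -0.31 (adjusted p = 0.0553 from limma). Ezh1 (chr11:101191115-101226463, minus strand, 21 exons), the paralog prominent in resting cells, was at 982.0, 902.9 and 634.9 in PBS and at 883.3, 848.0 and 880.9 in the libraries labelled pIpC. These ranges overlap, and PBS replicate 3 alone was the low one. The log2 fold change of Ezh1 was 0.08 (95% interval -0.36 to 0.51), and without PBS replicate 3 it was -0.11.

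The other core subunits did not pass either. Eed (chr7:89954654-89980983, minus strand, 12 exons), which reads H3K27me3 and stimulates the enzyme, was at 1393.0, 1444.4 and 1851.4 in PBS and at 1428.2, 1371.1 and 1336.4 in the libraries labelled pIpC. Its log2 fold change was -0.17 (95% interval -0.51 to 0.17), and without PBS replicate 3, its high value, it was -0.04. Suz12 (chr11:79993106-80034123, plus strand, 16 exons), which holds the complex together, was at 4170.3, 4198.6 and 2576.8 in PBS and at 3886.4, 3938.6 and 3927.9 in the libraries labelled pIpC. Here PBS replicate 3 was the low value, and the other 5 libraries lay within 3886.4 to 4198.6. The log2 fold change of Suz12 was 0.14 (95% interval -0.35 to 0.63) with all libraries and -0.10 without PBS replicate 3. The intervals leave room for a rise of up to 0.63 (Suz12) and a fall to -0.51 (Eed) on the log2 scale, so small differences in the PRC2 core were not resolved. Of their exonic bases, Ezh2, Eed and Suz12 share 2.61%, 6.82% and 3.60% with transcripts of the opposite strand. The study's methods describe stranded libraries, but whether the counting used strand is not stated. If it did not, reads of such shared bases cannot be told apart. Between the alternative enzymes, Ezh1 made up 15.4%, 15.1% and 10.1% of Ezh1 plus Ezh2 per kilobase of transcript in PBS and 15.5%, 15.5% and 15.3% in the libraries labelled pIpC (exact permutation test, 2-sided p = 0.2, n = 3 each, where 0.1 is the smallest p possible). Only PBS replicate 3 was out of the narrow range of the others.

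In the PRC1 core, Ring1 fell and its paralog Rnf2 did not pass the test. Ring1 (chr17:34020792-34024680, minus strand, 3 exons in its longest annotated transcript), an E3 ligase for H2A, had a normalized count of 926.6, 910.0 and 1312.7 in PBS and of 674.7, 534.3 and 581.2 in the libraries labelled pIpC, or 1050 ± 228 against 597 ± 71.5 (SD, n = 3 each). The groups did not overlap, and PBS replicate 3 was the highest library. For Ring1 the log2 fold change was -0.80 (SE 0.19, adjusted p = 0.0158 from limma), and without PBS replicate 3 it was -0.63 (adjusted p = 0.00101). Rnf2 (chr1:151458004-151500955, minus strand, 8 exons), the main H2A ligase in most cells, was at 1184.5, 1112.4 and 1023.0 in PBS and at 1081.9, 1089.1 and 1029.9 in the libraries labelled pIpC, with ranges that overlap. Its log2 fold change was -0.05 (95% interval -0.33 to 0.23). In the annotation Rnf2 shares 158 exonic bases (3.83% of its exons) with Trmt1l on the opposite strand.

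Set against each other within a library, which needs no scaling between libraries, Ring1 took 49.5%, 50.6% and 61.7% of Ring1 plus Rnf2 per kilobase in PBS and 43.9%, 38.1% and 41.4% in the libraries labelled pIpC. The mean share was 53.9% ± 6.72 in PBS and 41.1% ± 2.91 in the libraries labelled pIpC (SD, n = 3 each, exact permutation test, 2-sided p = 0.1, the smallest possible). Without PBS replicate 3 the difference was -8.94 percentage points in place of -12.8 (exact permutation p = 0.2, the smallest that 2 libraries against 3 allow). Per kilobase of the longest transcript, Ring1 was thus level with Rnf2 or above it in PBS, at 49.5% or more, and below it in every library labelled pIpC. Without correction for length, Ring1 was below Rnf2 in PBS replicates 1 and 2 as well. Bmi1 (chr2:18677018-18686629, plus strand, 10 exons), the PCGF subunit of canonical PRC1, was at 813.3, 863.4 and 769.5 in PBS and at 910.2, 807.1 and 835.5 in the libraries labelled pIpC. These values overlap, and the log2 fold change was 0.06 (95% interval -0.23 to 0.35). Its share of Bmi1 plus Pcgf2, the other PCGF gene of canonical PRC1, was 89.9% ± 1.82 against 89.1% ± 2.42 (SD, n = 3 each, exact permutation test, 2-sided p = 0.6).

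**Figure D3:**
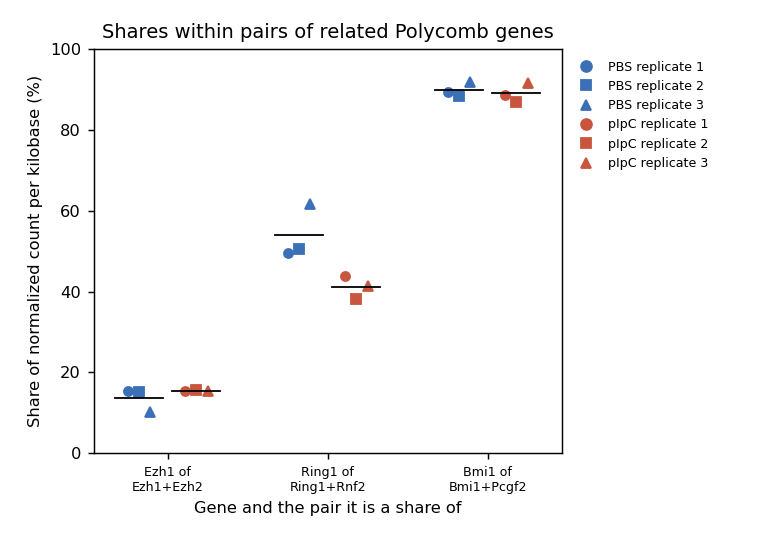
Share of 1 gene within each pair of related genes, in percent of the normalized count per kilobase of the longest transcript, for each library (blue PBS, red libraries labelled pIpC, black line the mean of 3). The Ring1 share is 49.5% to 61.7% in blue and 38.1% to 43.9% in red, and the shares of Ezh1 and Bmi1 overlap between the groups.

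Among the CBX genes, which encode the H3K27me3 readers of canonical PRC1, Cbx8 fell, Cbx7 was lower in part of the analyses and Cbx2 did not pass. Cbx8 (chr11:119036305-119040969, minus strand, 5 exons) was at 539.9, 551.6 and 789.9 in PBS and at 332.4, 259.5 and 310.4 in the libraries labelled pIpC, or 627 ± 141 against 301 ± 37.4 (SD, n = 3 each). The groups were well apart, with every PBS value above every other. The mean was 2.09-fold higher in PBS, the log2 fold change was -1.04 (SE 0.20, adjusted p = 0.00696 from limma), and without PBS replicate 3 it was -0.87 (adjusted p = 0.000389). Cbx7 (chr15:79915807-79971119, minus strand, 4 exons in its longest annotated transcript) was at 381.6, 369.4 and 206.0 in PBS and at 164.7, 221.7 and 215.6 in the libraries labelled pIpC. PBS replicate 3 lay among the libraries labelled pIpC, and the other PBS libraries lay above all of them. With all libraries the log2 fold change of Cbx7 was -0.63 (SE 0.28, adjusted p = 0.129 from limma). It passed without PBS replicate 3 (-0.91, adjusted p = 0.000936 from limma), with the length trend of each library removed (-0.92, adjusted p = 0.00319 from limma), with edgeR (adjusted p = 0.09) and with DESeq2 (adjusted p = 0.0684). Cbx7 shares 100 exonic bases (1.54% of its exons) with Apobec3 on the opposite strand. Cbx2 (chr11:119022962-119031270, plus strand, 5 exons), the least abundant member, was at 116.8, 80.0 and 73.6 in PBS and at 91.8, 103.2 and 87.0 in the libraries labelled pIpC, so that the ranges overlap. Its log2 fold change was 0.09, with a wide 95% interval of -0.50 to 0.67.

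The neighbouring CBX genes below differed in whether they passed the test with all libraries. Cbx2 and Cbx8 lie 5034 bases apart on opposite strands of chromosome 11, and of these Cbx8 alone passed the test. On chromosome 15, Cbx6 and Cbx7 lie 81118 bases apart on the same strand. Cbx6 rose from 31.1, 50.6 and 47.5 in PBS to 472.1, 562.9 and 559.9 in the libraries labelled pIpC, a 12.3-fold difference of the means (log2 fold change 3.62, SE 0.24, adjusted p = 7.35e-05 from limma). Cbx7, at the values above, did not pass with all libraries. No library of one group came near those of the other for Cbx6.

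The promoters of the members that fell and of the PRC1 genes that rose most are shown because these genes moved in opposite directions within PRC1. RefSeq starts were found for 9 of the 10 members, Cbx2 being the exception, and for 46 of all 56 Polycomb genes listed. Each line holds the 250 bases before the start on GRCm38.p6, written 5′ to 3′ in the direction of the gene, with matches to CACGTG and to TGACGTC (or its reverse complement GACGTCA) in capitals. Ring1 is chr17:34024681-34024930 on the minus strand, Cbx8 chr11:119040914-119041163 on the minus strand, Cbx6 chr15:79834334-79834583 on the minus strand and Scml2 chrX:161162500-161162749 on the plus strand. The Scml2 window lies well inside the counted gene (chrX:161117193-161258213), so its start is not the first one annotated. The Cbx6 window also lies inside its counted gene (chr15:79823896-79834688), near its start.
Ring1: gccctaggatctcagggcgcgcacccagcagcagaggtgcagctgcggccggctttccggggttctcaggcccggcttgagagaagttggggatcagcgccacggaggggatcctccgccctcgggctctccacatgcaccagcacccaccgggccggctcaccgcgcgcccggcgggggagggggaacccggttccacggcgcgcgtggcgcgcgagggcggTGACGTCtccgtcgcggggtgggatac
Cbx8: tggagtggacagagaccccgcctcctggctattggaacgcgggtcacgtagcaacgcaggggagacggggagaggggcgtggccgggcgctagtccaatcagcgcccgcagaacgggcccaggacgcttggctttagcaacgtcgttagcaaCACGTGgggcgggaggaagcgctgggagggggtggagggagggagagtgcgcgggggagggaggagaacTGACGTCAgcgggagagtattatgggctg
Cbx6: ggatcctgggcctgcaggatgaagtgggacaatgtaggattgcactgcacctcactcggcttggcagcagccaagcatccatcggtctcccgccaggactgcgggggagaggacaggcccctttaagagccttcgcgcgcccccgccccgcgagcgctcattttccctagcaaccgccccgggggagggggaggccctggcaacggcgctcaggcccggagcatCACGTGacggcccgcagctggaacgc
Scml2: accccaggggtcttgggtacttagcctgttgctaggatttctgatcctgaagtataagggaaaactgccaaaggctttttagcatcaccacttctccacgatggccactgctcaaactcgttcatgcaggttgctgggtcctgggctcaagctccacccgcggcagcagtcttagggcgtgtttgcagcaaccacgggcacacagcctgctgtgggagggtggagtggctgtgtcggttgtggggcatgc
Some patterns of known promoter elements were searched on both strands in these windows, chosen after the sequences had been seen. TGACGTC, the core of the cAMP response element, was in 914 of 32851 windows (2.78%), and among the members in Ring1 and Cbx8. It was also in windows of Phf19, which fell, and of Kdm2b, which did not pass the test. In Cbx8 the next base makes it the palindrome, so both strands match at the same place. CACGTG, the E-box, was in 6.02% of windows, among them those of the members Bmi1 and Cbx8 and that of Cbx6. It was also in windows of Bap1, Bcorl1, Kdm6a and Mbd5, which rose, and of Pcgf2, Phc2, Phc3 and Rbbp4, which did not pass the test. CCAAT was in 33.85% of windows and in 4 members, TTCCCGC in 3.82% and in Suz12, and CCGGAAG in 6.91% and in no member. CpG pairs numbered 30 in the Ring1 window, 22 in Cbx8, 20 in Cbx6 and 7 in Scml2, where the median window has 6. The percentages of windows above were not matched on CpG pairs. A match is a description of the letters and not evidence of a bound factor.

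Ordered by level per kilobase of the longest transcript, the members ran in PBS from Ezh2 (1277 normalized counts per kilobase) through Suz12 (834), Eed (756), Ring1 (411), Rnf2 (346), Bmi1 (227), Ezh1 (199.6), Cbx8 (175) and Cbx7 (52.7) to Cbx2 (23.7). The libraries of neighbours overlapped for Suz12 and Eed, for Ring1 and Rnf2, for Bmi1 and Ezh1 and for Ezh1 and Cbx8, so those pairs have no firm order. In the libraries labelled pIpC the order was Ezh2 (1135), Suz12 (896), Eed (667), Rnf2 (333), Bmi1 (237), Ring1 (234), Ezh1 (207), Cbx8 (84.0), Cbx7 (33.1) and Cbx2 (24.7), and overlaps were seen for Bmi1 and Ring1 and for Ring1 and Ezh1. The PRC2 subunits Ezh2, Suz12 and Eed thus headed both orders and the CBX members closed both, and 7 of the 10 members kept their place. Ring1 moved from the fourth place to the sixth, and Rnf2 and Bmi1 each moved up by 1.

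The members also differed in how closely their libraries agreed. In the libraries labelled pIpC the coefficient of variation ran from 0.70% for Suz12 to 15.6% for Cbx7, and in PBS from 5.29% for Ezh2 to 30.7% for Cbx7. The distance of PBS replicate 3 from PBS replicates 1 and 2 went with transcript length. It was 0.38 above their mean on the log2 scale for Eed (2067 bases) and 0.52 above for Ring1 (2552 bases), and at -0.57 for Ezh1 (4207 bases), -0.70 for Suz12 (4373 bases) and -0.86 for Cbx7 (6057 bases). Cbx8 (3580 bases) was high for its length, at 0.53, while Bmi1, with nearly the same length (3594 bases), was at -0.12.

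**Figure D4:**
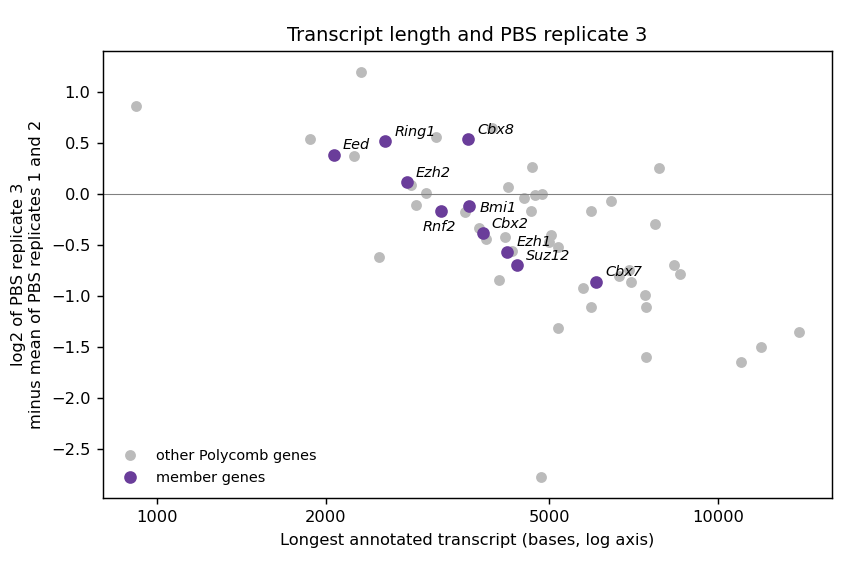
Distance of PBS replicate 3 from the mean of PBS replicates 1 and 2 on log2(normalized count + 1), against the length of the longest annotated transcript on a log axis, for the 54 Polycomb genes tested. Purple points are the members, from 0.53 (Cbx8) to -0.86 (Cbx7), and grey points the other Polycomb genes, and longer transcripts lie lower.

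The genes whose pattern over the 6 libraries was nearest to that of a PRC2 enzyme were found by the distance of centred log2 values among 10486 genes with a mean of at least 100. For Ezh1 they were Zfp101 (distance 0.07, r = 0.989), Lin7c (0.07, r = 0.990) and Top3b (0.08, r = 0.985). For Ezh2 they were Slc8b1 (0.05, r = 0.978), Cstf1 (0.07, r = 0.972) and Sp110 (0.07, r = 0.960). These distances and correlations are a description over 6 libraries, among which PBS replicate 3 stands apart.

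Of 46 other Polycomb genes listed, 44 were tested, and 16 of the 44 passed the test. Of these 10 rose and 6 fell where the label says pIpC, and the median log2 fold change of the 44 was 0.17, beside 0.01 over all genes tested. That is 36.4% beside 45.3% of all genes. Without PBS replicate 3 it was 31, 18 higher and 13 lower, with a median of -0.02, beside 65.1% of all genes. With each library's length trend removed it was 24, 12 in each direction, where 7949 of all 15020 genes passed. Ezhip, an inhibitor of PRC2, and Asxl3 had no read in any library.

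Accessory subunits of PRC2 went both ways. The core partners Rbbp4 and Rbbp7, histone-binding proteins shared with other complexes, did not pass (log2 fold changes -0.11 and 0.03), though without PBS replicate 3 Rbbp7 did, at 0.16 (adjusted p = 0.0826 from limma). In the PRC2.1 form, 1 of 5 accessory genes rose and 2 fell, or 60% beside 45.3% of all genes. Without PBS replicate 3 it was 2 and 2, beside 65.1% of all genes. Epop, which joins PRC2 to elongin, fell from 222.4, 268.2 and 561.3 to 95.8, 73.6 and 79.3, with no overlap (log2 fold change -1.96, SE 0.36, adjusted p = 0.00577 from limma, and -1.56 without PBS replicate 3), and Phf19 fell by 0.78 on the log2 scale. Phf1, a Polycomb-like protein that brings PRC2 to chromatin as Phf19 does, rose from 297.6, 325.9 and 459.5 to 510.0, 592.6 and 610.2 (log2 fold change 0.68, adjusted p = 0.0363 from limma). However, 39.3% of its exonic bases are shared with Cuta on the opposite strand. If the counting did not use strand, the reads of the 2 cannot be told apart. Phf1 lost the call without PBS replicate 2, pIpC replicate 2 or pIpC replicate 3 (adjusted p 0.101, 0.129 and 0.133 from limma). Neither Jarid2 nor Aebp2 of the PRC2.2 form passed with all libraries, at -0.43 and 0.18, and without PBS replicate 3 Jarid2 passed, at -0.66.

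Within PRC1, 1 of 5 other PCGF genes rose, or 20% beside 45.3% of all genes. Without PBS replicate 3 it was 1 higher and 1 lower, beside 65.1% of all genes. Pcgf3, of a variant PRC1, went from 478.5, 444.4 and 375.7 to 655.7, 664.1 and 672.1 (log2 fold change 0.62, adjusted p = 0.0138 from limma), and with the length trend removed it no longer passed (0.25, adjusted p = 0.248 from limma). Of 7 other canonical PRC1 genes 2 rose, Cbx6 and Scml2, and 1 fell, or 42.9% beside 45.3% of all genes. Without PBS replicate 3 it was 3 and 3, beside 65.1% of all genes. Scml2, a Polycomb protein best known from the germline, had no read in any PBS library and 116.8, 103.2 and 74.5 normalized counts in the libraries labelled pIpC, which is at least 32.6-fold higher than the floor of 3 reads per PBS library. Phc1, a polyhomeotic scaffold subunit, fell from 404.1, 353.3 and 395.0 to 266.5, 285.1 and 257.2 (log2 fold change -0.51, adjusted p = 0.0310 from limma), and lost the call without pIpC replicate 1 or 3 (adjusted p 0.101 and 0.126 from limma) and with a replicate block (0.104).

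Genes of variant PRC1, the forms without a CBX protein, went both ways as well. Rybp, which takes the place of CBX proteins on RING1 and RNF2, rose from 955.2, 842.1 and 871.4 to 2406.3, 2574.6 and 2383.7, with no overlap (log2 fold change 1.46, SE 0.11, adjusted p = 0.000138 from limma). Its paralog Yaf2 was at 0.18 and did not pass with all libraries, and without PBS replicate 3 it passed, at 0.36. Auts2, of a variant PRC1 linked to gene activation, fell from 276.9, 207.5 and 120.0 to 12.0, 23.5 and 13.5 (log2 fold change -3.52, SE 0.40, adjusted p = 0.000709 from limma). Bcorl1 rose by 1.22, and its paralog Bcor fell by 0.75 and E2f6 fell by 0.81 on the log2 scale, which makes 2 higher and 3 lower of 13, or 38.5% beside 45.3% of all genes. Without PBS replicate 3 it was 5 higher and 6 lower, beside 65.1% of all genes, and Bcorl1 was at 0.84.

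Both H3K27 demethylases rose: Kdm6b from 804.6, 754.1 and 445.9 to 1660.8, 2235.5 and 2026.8 (log2 fold change 1.60, SE 0.25, adjusted p = 0.00295 from limma), and Kdm6a from 883.4, 879.6 and 407.4 to 1508.1, 1732.8 and 1646.8 (log2 fold change 1.25, adjusted p = 0.0188 from limma). These 2 of 2 calls stand beside 25.0% of all genes tested that were higher. In both, every library labelled pIpC was above every PBS library, where the groups did not overlap in 56.8% of all genes tested. Without PBS replicate 3 the log2 fold changes of Kdm6b and Kdm6a were 1.33 and 0.88. Among the genes of the Polycomb deubiquitinase PR-DUB, which removes ubiquitin from H2A, 2 of 8 tested rose, a share equal to the 25.0% of all genes that were higher. Without PBS replicate 3 there were 4, beside 65.1% of all genes that passed in either direction. With all libraries the 2 were the catalytic subunit Bap1 (log2 fold change 0.44, adjusted p = 0.0665 from limma) and Mbd5 (0.74, adjusted p = 0.0696 from limma), and both lost the call without pIpC replicate 2 or 3 (adjusted p 0.175 to 0.219 from limma), Bap1 also without pIpC replicate 1 (0.161), under quantile normalization (0.164), with a replicate block (0.117) and with no intensity trend (0.105).

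**Figure D5:**
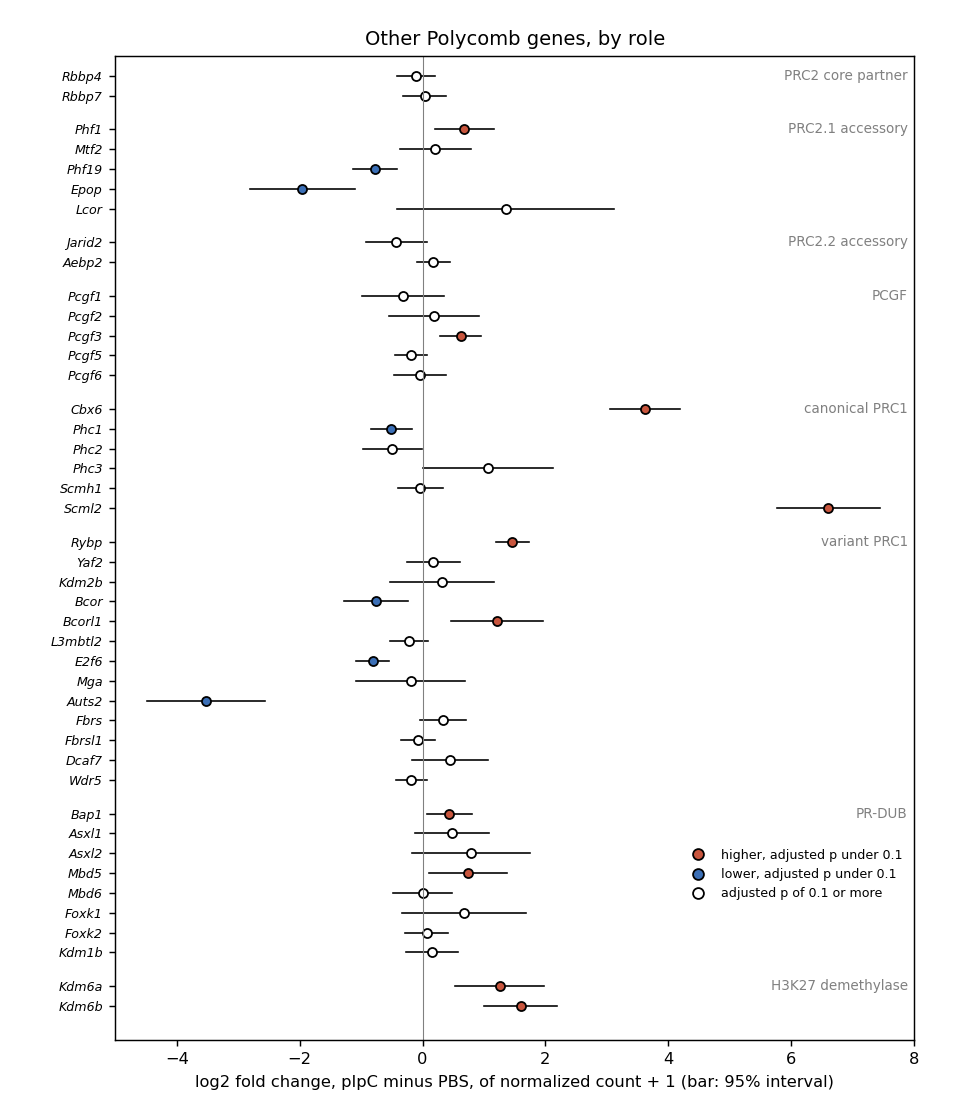
log2 fold change of other Polycomb genes tested, libraries labelled pIpC minus PBS, on log2(normalized count + 1), with 95% intervals from limma, grouped by role. Red points passed an adjusted p of 0.1 as higher and blue as lower, and open points did not pass. Cbx6 (3.62) and Auts2 (-3.52) lie far from 0, and Scml2 has no read in PBS, so its position depends on the pseudocount.

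Known Polycomb targets mostly had no read in either group. Of 30 developmental regulators, 25 had no read in any PBS library and 27 none in the libraries labelled pIpC, among them Gata4, Sox2, Hand1 and Hoxd13, which allows up to 3 reads in each library. En2, a homeobox gene, was the 1 that reached the filter on low values, with 85.7, 37.5 and 43.0 normalized counts in PBS and no read in the libraries labelled pIpC, which is at least 18.5-fold lower against the floor of 3 reads per library. Cdkn2a, the classical target of BMI1 and CBX7, fell from 93.4, 130.6 and 271.6 to 16.0, 4.09 and 18.4 (log2 fold change -3.66, SE 0.63, adjusted p = 0.00425 from limma, and -3.23 without PBS replicate 3). All 3 PBS libraries were above all libraries labelled pIpC, and the values of Bmi1 and Cbx7 are those above. Its neighbour Cdkn2b was too low to test, at 6, 9 and 8 reads in PBS and 1, 0 and 1 in the libraries labelled pIpC. Proliferation genes, which dividing cells share whatever their type, were 11 higher and 4 lower of 26, or 57.7% beside 45.3% of all genes. Without PBS replicate 3 they were 17 higher and 7 lower, beside 65.1% of all genes. With all libraries, Mcm2 (log2 fold change -0.34), Mcm3 (-0.48) and Mcm6 (-0.61) were among the 4 lower, so the list did not move as one. Mki67 was higher (log2 fold change 0.98, adjusted p = 0.0391 from limma), at 0.66 without PBS replicate 3, and lost the call without pIpC replicate 2 or 3 (adjusted p 0.138 and 0.114 from limma). The summed level of the list was 119657 to 130270 in PBS and 145944 to 149407 in the libraries labelled pIpC. A large part of that sum came from Mki67 (mean 15334 in PBS and 28960 in the libraries labelled pIpC) and Top2a (12636 and 20346). Their longest transcripts have 10061 and 5221 bases. The part of the proliferation genes in the values of Ezh2 and the other members was not tested.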

How the data were processed

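Poly(A)-selected RNA-seq libraries were analysed, 3 PBS and 3 pIpC, grouped by their titles. The study's methods describe stranded libraries, and whether the counting used strand is not stated. The authors deposited 1 table of gene counts divided by a size factor per library, treated here as a signal. Divided by the value of 1 read, all values (100% in each library) came within 0.1 of a whole number, so reads were recovered. The submitters' processing notes name HISAT2 2.2.1, featureCounts, edgeR and GRCm38, and the study's methods name STAR, RSEM and DESeq2, so how multiply mapped reads were counted is open. All 6 per-sample columns were used. Genes were matched through GENCODE M21 (GRCm38), 55141 of 55487 with a symbol.

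On log2(normalized count + 1), a scale that understates changes of low genes, the 15020 genes whose mean over the libraries reached 10 normalized counts were fitted in limma 3.58.1 (R 4.3.3). The fit had an intensity trend and no block, with a threshold of 0.1 on the Benjamini-Hochberg adjusted p. Shares of related genes had an exact permutation test over libraries. The alternatives changed the pseudocount (0.1 or 10), the filter (none, or a mean of 50), the scaling (quantile, or log ratios centred on their median), the libraries (each left out), the block, the trend, the tool (edgeR 4.0.16 or DESeq2 1.42.0 on recovered reads), the threshold (0.05) and, for shares, the length (merged exons or none). Removal of each library's length trend was added after the data were seen. The test was tried on simulated data.

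The members and the gene lists were chosen with earlier results of these data known. Named were all members, Polycomb genes at 3 reads or fewer throughout a group, the highest and lowest past the threshold in each role, the 3 genes nearest to Ezh1 and Ezh2, targets with a mean of at least 10, and fixed markers. Phf19, Bcor, Bcorl1, E2f6 and others were named after their values were seen. Libraries within a group differed by more than sampling noise (chi-square per gene 6.30 to 194). No protein sequence was used here. Some items, among them the shares of the CBX genes, are not reported here.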

Additional observations from a re-analysis of the deposited data

How the results depend on the processing

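Ring1 and Cbx8 fell under every alternative run, with log2 fold changes of -0.89 to -0.63 and -1.14 to -0.87 and adjusted p up to 0.0736 and 0.0375 from limma. The count of member calls was 2 or 3, all lower. It was 3 under quantile normalization, with Ezh2, and without PBS replicate 3, with edgeR, with DESeq2 and with the length trend removed, with Cbx7. With each library left out in turn, calls ranged from 2 to 3 for the members, from 11 to 31 for the other Polycomb genes (31 without PBS replicate 3) and from 4650 to 9783 for all genes. Among members that did not pass, the sign of the log2 fold change was opposite under quantile normalization, which shifted the median of all genes to -0.12, for Ezh1 (-0.011), Suz12 (-0.00041), Bmi1 (-0.030) and Cbx2 (-0.077), and with the length trend removed, with or without a block, for Ezh1 (-0.052), Eed (0.0044) and Suz12 (-0.0096). With each library left out, Ezh1 ranged from -0.11 to 0.20, Suz12 from -0.10 to 0.26 and Cbx2 from -0.043 to 0.29, each at its lowest and negative without PBS replicate 3. The difference in the Bmi1 share ranged from -2.16 to 0.22 percentage points and reversed without PBS replicate 3 (0.16) and without pIpC replicate 2 (0.22). The causes were not tested. Deviations of same-numbered libraries correlated at -0.12, 0.14 and 0.04, so no clear pairing by replicate number was seen. With 3 libraries per group and PBS replicate 3 apart, these correlations cannot exclude a pairing. With a replicate block, 6095 genes, 2 members and 15 other Polycomb genes passed, and with the block and the length trend removed 7225, 3 and 21. Over 29 single genes and 549 comparisons, 509 kept direction and call, 21 lost the call, 6 gained it and 13 changed sign. With 3 libraries against 3, an exact test cannot go below 0.1. Cbx2, with 65 to 135 reads per library, had the fewest reads of the members.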
